A study of Rattus norvegicus with 6 samples.

Results

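The flavin monooxygenase (Fmo) family was represented by Fmo1, Fmo2, Fmo4 and Fmo5, 4 of the 15388 genes counted in the rat thyroid. They were taken from the count tables by gene symbol. The family was picked out because Fmo2 was much lower on day 18 of pregnancy (late pregnancy, LP) than in non-pregnant (NP) rats. The LP against NP values of the members are therefore a description, without a test. The thyroids came from adult Sprague-Dawley rats, NP in one group and LP in the other, with the morning of the vaginal plug as day 1, and polyA+ RNA of 3 samples per group was sequenced. No transgene, drug or diet was named for either group. The methods give 3 rats for each of these groups, and no pooling is named.

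Fmo enzymes are flavoproteins of the endoplasmic reticulum. They use NADPH and oxygen to oxidize the nitrogen or sulfur atoms of drugs, dietary amines and sulfides. In contrast to cytochrome P450 enzymes, they take electrons from NADPH through their own flavin and need no separate reductase. The antithyroid drug methimazole is a classical Fmo substrate. Fmo2 is best known as the form of the lung, and in rabbits the lung enzyme is known to increase during pregnancy. Fmo1 is abundant in kidney and liver of rodents and also oxidizes hypotaurine to taurine. Fmo5 acts as a Baeyer-Villiger oxidase of ketones, and the substrates of Fmo4 are poorly known.

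The proximal promoters of 3 of the 4 members were found in the RefSeq table (build GRCr8) and are shown because Fmo2 differed from Fmo1 and Fmo5 in its response. Each holds 250 bases before and 50 bases after the annotated start, written 5′ to 3′ on the strand of the gene. Capitals mark the letters of the motifs searched on both strands, which were the TATA box (TATAAA), the CCAAT box (CCAAT), the GC box (GGGCGG), the steroid receptor half-site (AGAACA), the nuclear receptor half-site (AGGTCA), the core of the aryl hydrocarbon receptor element (GCGTG) and the E box (CACGTG).
Fmo2, chr13:77777485-77777784, minus strand: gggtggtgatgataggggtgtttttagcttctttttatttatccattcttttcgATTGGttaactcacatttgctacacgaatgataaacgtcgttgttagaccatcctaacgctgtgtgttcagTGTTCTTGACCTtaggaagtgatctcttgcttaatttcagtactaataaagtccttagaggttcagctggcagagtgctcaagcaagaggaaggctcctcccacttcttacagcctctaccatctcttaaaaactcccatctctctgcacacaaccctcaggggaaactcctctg
Fmo1, chr13:77747617-77747916, minus strand: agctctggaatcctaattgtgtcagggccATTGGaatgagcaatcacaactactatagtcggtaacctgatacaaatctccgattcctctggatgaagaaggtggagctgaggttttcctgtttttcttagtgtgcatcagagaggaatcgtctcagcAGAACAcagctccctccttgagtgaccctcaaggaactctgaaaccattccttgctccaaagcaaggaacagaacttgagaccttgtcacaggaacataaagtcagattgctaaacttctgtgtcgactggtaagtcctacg
Fmo5, chr2:187910714-187911013, plus strand: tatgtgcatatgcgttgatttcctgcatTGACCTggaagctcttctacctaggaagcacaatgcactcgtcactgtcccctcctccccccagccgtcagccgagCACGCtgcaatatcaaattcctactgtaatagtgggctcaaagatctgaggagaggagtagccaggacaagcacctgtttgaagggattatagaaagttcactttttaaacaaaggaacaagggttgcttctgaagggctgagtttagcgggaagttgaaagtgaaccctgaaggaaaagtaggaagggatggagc
The Fmo2 window held a CCAAT box 196 bases before the start, a steroid receptor half-site 125 bases before it and, directly after, a nuclear receptor half-site 119 bases before the start, all as reverse complements. The Fmo1 window also held a CCAAT box and a steroid receptor half-site, at 221 and 92 bases before the start. The Fmo5 window had neither of these and instead held a nuclear receptor half-site and an aryl hydrocarbon receptor core, 222 and 146 bases before the start. Such short motifs are common. Among 33469 promoter windows of the same length, 37.5% held the CCAAT box, 20.7% the steroid receptor half-site, 16.2% the nuclear receptor half-site and 29.7% the aryl hydrocarbon receptor core. The letters of the TATA box (in 14.2% of all windows), the GC box (33.1%) and the E box (6.4%) were in none of the 3. The matches are descriptions of the letters, not binding sites, and the counts were made on another build (rn5).

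Between 2752144 and 3449857 reads were counted on genes per sample. Levels are given as CPM, in which the count of a gene is divided by the size of its library, here corrected by the TMM method so that genes with little change set the scale. Replicates 2 and 3 of a group agreed within sampling noise, with a chi-square per degree of freedom of 1.02 in NP and 0.995 in LP. They were counted as 1 sample, so each mean ± SD has n = 2, while replicate 1 stood apart with values of 3.70 or more against them. Separate animals behind replicates 2 and 3 are thus not shown, and SD, standard errors and p-values may measure technical spread. All 8 follicular cell markers were present, led by Tg, with no marker past the criteria. Short of a 2-fold change, Slc5a5 (log2 fold change -0.94, adjusted p = 3.08e-10) and Tshr (-0.68, adjusted p = 3.99e-07) were lower in LP. Nkx2-1 (0.28, adjusted p = 0.0021) and Duox2 (0.29, adjusted p = 0.00947) were higher (edgeR's quasi-likelihood test for each). The markers of C cells (led by Calca) and of the parathyroid (led by Pth) were present as well, so the tissue held more than follicles.

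Fmo2 had the largest difference of the family. Fmo2 (ENSRNOT00000004762) was counted with 128, 125 and 107 reads in NP replicates 1 to 3, compared with 12, 25 and 13 in LP. Every LP sample lay far below every NP sample, and LP replicate 2 was the highest of LP. The level was 42.0 ± 5.5 CPM (SD, n = 2) in NP and 4.75 ± 1.28 CPM in LP. In the edgeR model this was a 7.94-fold lower level in LP, with a log2 fold change of -2.99 (standard error, SE, 0.20). All 6 samples stayed above 3 reads, the smallest level taken as detectable here, which lay between 0.893 and 1.08 CPM and covers counting error only. In bulk tissue, fewer cells that express Fmo2 and less Fmo2 RNA per cell cannot be told apart. The difference was seen in both sets of replicates, with a log2 ratio of -3.58 in the replicate 1 samples and of -2.75 in replicates 2 and 3. Without LP replicate 2 the log2 fold change was -3.38.

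Fmo1, the hypotaurine oxidase, was also lower in LP but by much less. It gave 42, 47 and 54 reads in the NP samples, compared with 30, 41 and 34 in LP. The groups did not overlap in CPM, with 15.1, 15.5 and 17.8 CPM in NP against 9.62, 12.2 and 10.1 CPM in LP. The log2 fold change was -0.59 (SE 0.18), or 1.51-fold lower. The log2 ratio was -0.65 in replicate 1 and -0.57 in replicates 2 and 3.

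Fmo5, the Baeyer-Villiger oxidase, gave the steadiest values. It gave 107, 111 and 100 reads in the NP samples, compared with 92, 97 and 93 in LP. The groups did not overlap here either, at 38.4, 36.5 and 32.9 CPM in NP and 29.5, 28.9 and 27.7 CPM in LP. The log2 fold change of -0.32 (SE 0.11) corresponded to a 1.25-fold lower level. Fmo5 and Fmo2 thus had similar read counts in NP, whereas in LP Fmo5 kept most of its reads and Fmo2 did not.

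Fmo4 gave few reads, 6, 6 and 11 in the NP samples compared with 11, 11 and 13 in LP. The NP and LP samples overlapped, since NP replicate 3 (3.63 CPM) lay above LP replicates 1 and 2 (3.53 and 3.27 CPM). The log2 fold change was 0.45 (SE 0.36), so a change of the size seen for Fmo1 could not have been told from the spread at this depth.

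**Figure D1:**
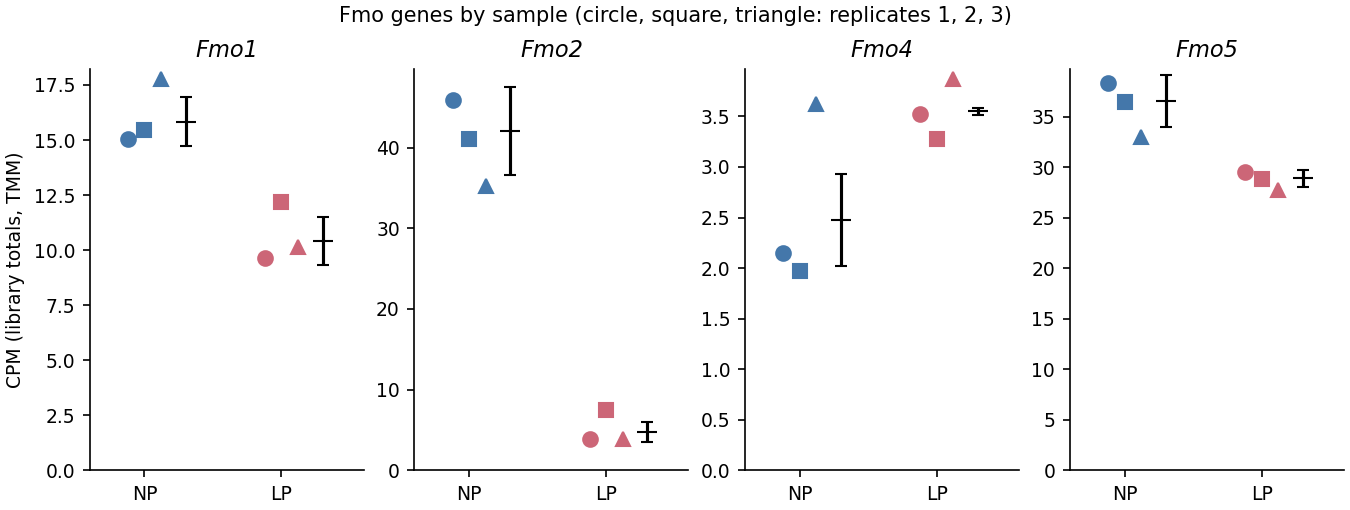
CPM of the 4 Fmo genes in each NP (blue) and LP (red) sample, on a separate linear axis for each gene, with mean ± SD in black (replicates 2 and 3 counted as 1 sample, n = 2). Fmo2 dropped from between 35.3 and 45.9 CPM to between 3.85 and 7.44 CPM, Fmo1 and Fmo5 shifted less, and Fmo4 overlapped.

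The study called a gene when its level changed more than 2-fold at an adjusted p-value below 0.05. By these criteria Fmo2 was the 1 member of 4 that was called, and it was down-regulated, beside 5.44% of the 11738 genes kept after removal of low counts (0.537% down-regulated and 4.90% up-regulated). All 4 members passed the filter. Fmo2 was called in each of 16 fits (the model as reported and 15 alternatives), and the other members in 0 of 16. The fit with a stricter filter left out Fmo1 and Fmo4. All fits drew on the same 6 samples and on the contrast that picked the family, so these calls are a description. In 3 of the 4 members the groups did not overlap and LP was lower, while 18.9% of all genes tested showed this and 40.1% did not overlap in either direction.

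The makeup of the family followed Fmo2. In NP replicate 1, Fmo2 took 45.2% (95% exact binomial interval 39.3% to 51.2%) of the 283 reads on the 4 genes. Its share was 43.3% and 39.3% in NP replicates 2 and 3. In LP it was 8.3% (4.3% to 14.0%) of 145 reads in replicate 1, 14.4% (9.5% to 20.5%) of 174 in replicate 2 and 8.5% (4.6% to 14.1%) of 153 in replicate 3. The highest LP share thus lay well below the lowest NP share. Fmo5 was the leading source of Fmo reads in each LP sample, with 55.7% to 63.4%, against 36.8% to 38.4% in NP, where Fmo2 led. These are shares of reads, which also depend on transcript length, and lengths were not used here.

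**Figure D2:**
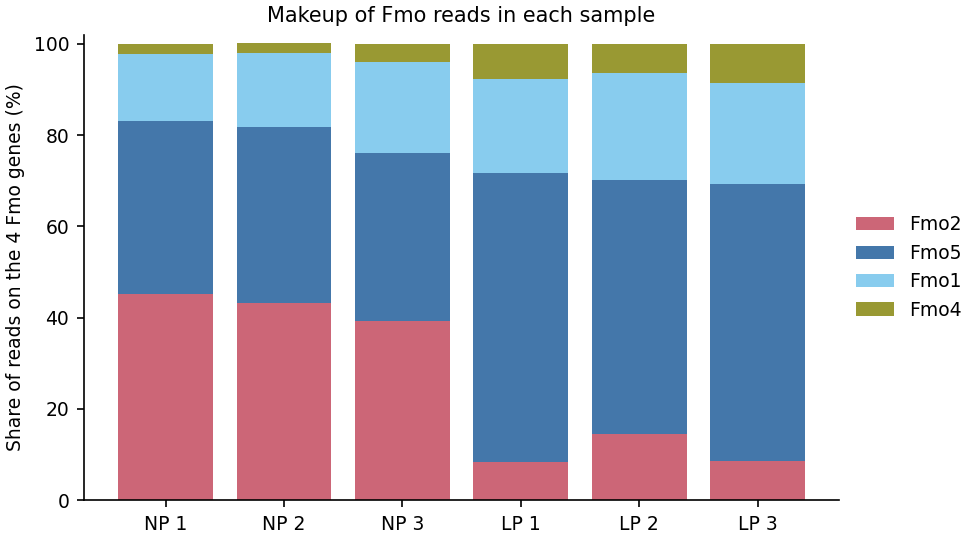
Stacked bars of the percentage of reads on the 4 Fmo genes that fell on each gene, for each sample. Fmo2 took 39.3% to 45.2% in NP and 8.3% to 14.4% in LP, and Fmo5 became the largest part in LP.

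The summed level of the 4 genes was 96.9 ± 6.5 CPM (SD, n = 2) in NP and 47.6 ± 1.6 CPM in LP. Fmo2 alone made up 75.6% of this difference. Without Fmo2 the sum was 54.9 ± 1.0 CPM in NP and 42.8 ± 0.27 CPM in LP. The ratio of Fmo2 to Fmo5 reads was between 1.07 and 1.20 in NP and between 0.130 and 0.258 in LP, and that of Fmo2 to Fmo1 reads between 1.98 and 3.05 in NP and between 0.382 and 0.610 in LP. Both ratios are taken within a sample and do not depend on how the libraries were scaled.

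Fmo4, Fmo1 and Fmo2 follow each other along one chromosome, and Fmo5 lies on another. Genes on either side were therefore compared with the members. Past Fmo2, outside the family, came Prrx1, a homeobox gene of mesenchyme. It had a log2 fold change of 0.23 (adjusted p = 0.506, edgeR's quasi-likelihood test). Gorab, a Golgi protein gene, followed with -0.01, and Kifap3, a kinesin adaptor, with -0.11. Vamp4, a vesicle fusion gene on the far side of Fmo4, was at -0.16. None of these 4 neighbours met the criteria, and their NP and LP samples overlapped. The difference of Fmo2 was thus not seen in the neighbouring genes measured. Myoc and Mir199a2, also on that side, had at most 4 reads in any sample and were below the filter.

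Around Fmo5, the neighbour Pde4dip, which encodes the scaffold protein myomegalin, rose strongly, from 63.1 ± 3.1 to 674 ± 21 CPM (SD, n = 2), a log2 difference of 3.42 (SE 0.063, adjusted p = 4.45e-17, edgeR's quasi-likelihood test). Fmo5 itself, at -0.32, did not follow it. The AMP kinase subunit gene Prkab2 was at 0.77 (adjusted p = 7.16e-05, edgeR) and the phosphatase gene Acp6 at -0.56 (adjusted p = 1.22e-06, edgeR). The vesicle transport gene Sec22b was at -0.46 (adjusted p = 0.000211, edgeR). These 3 stayed below a 2-fold change. Bcl9 and Chd1l, at 0.21 and -0.15, did not pass the test.

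**Figure D3:**
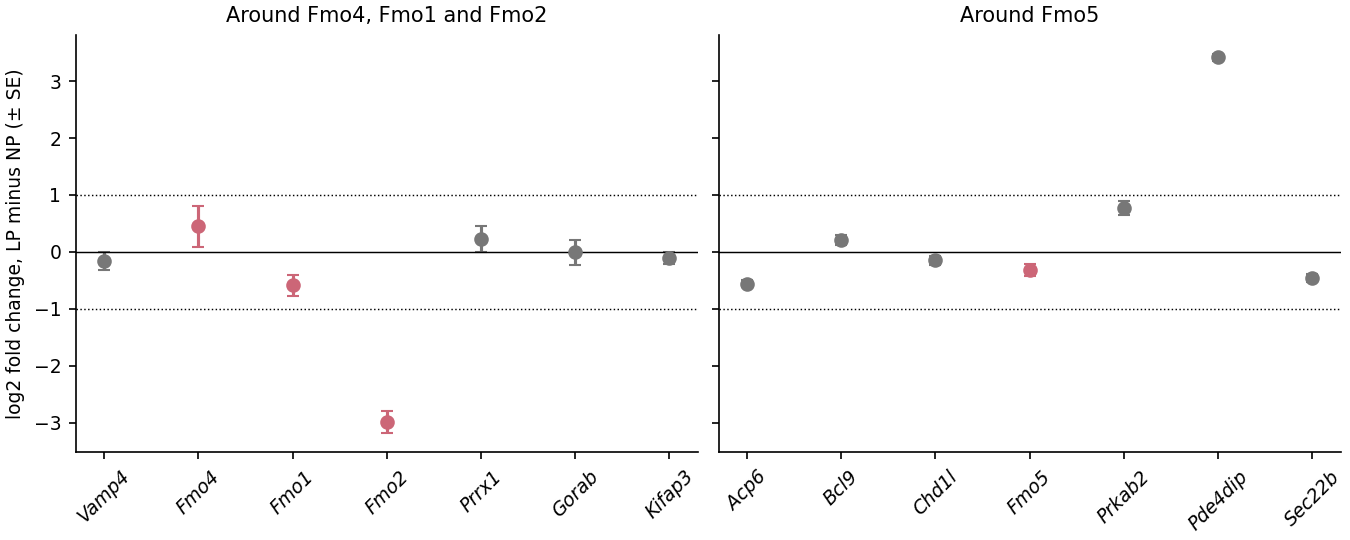
Log2 fold change (LP minus NP, ± standard error) of the Fmo genes (red) and their counted neighbours (grey), in chromosomal order but not to scale; dotted lines mark a 2-fold change. Fmo2 stands alone at -2.99 among its neighbours, and Pde4dip stands at 3.42 beside Fmo5.

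Of the 10446 genes with a mean of at least 20 reads, the 5 with a profile most like Fmo2 were then named, by the distance over the 6 samples between log2 CPM values centred on the NP mean. The nearest was Slc2a10, a facilitative glucose transporter gene, at a distance of 0.79. It gave 181, 197 and 205 reads in the NP samples, compared with 18, 25 and 25 in LP, and a log2 fold change of -3.24 (SE 0.13). It was the 1 gene of the 63 down-regulated ones with a larger decrease than Fmo2. The next was Snx22, a sorting nexin, at a distance of 1.65 with a log2 fold change of -2.07, so the pair of Fmo2 and Slc2a10 stood apart from the others. Eva1c (distance 1.86), the transcription repressor gene Zbtb16 (2.03) and Mro (2.04) had log2 fold changes of -1.96, -1.83 and -1.84. Zbtb16, known to be induced by glucocorticoids and progestins, gave 168, 157 and 171 reads in the NP samples, compared with 33, 57 and 65 in LP. Its lowest LP sample was replicate 1, whereas Fmo2 was about equally low in LP replicates 1 and 3. These genes were selected on the same contrast, and their likeness is a description.

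**Figure D4:**
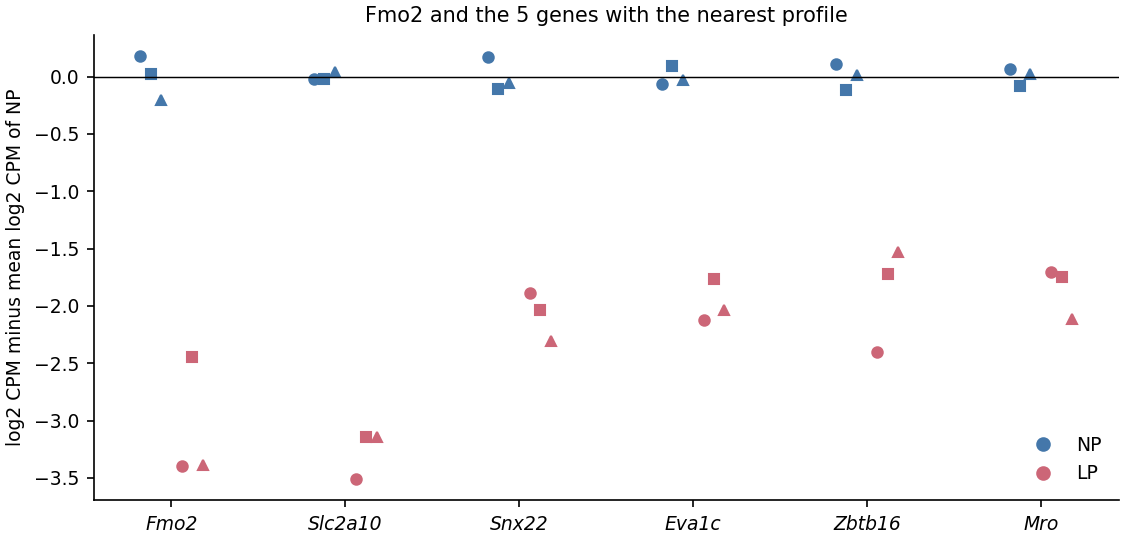
Log2 CPM minus the mean log2 CPM of NP for Fmo2 and the 5 genes with the nearest profile, in each NP (blue) and LP (red) sample (circle, square and triangle for replicates 1, 2 and 3). Fmo2 and Slc2a10 reached the lowest LP values, and the other 4 genes lay higher.

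Enzymes that share substrates, cofactors or regulation with the family were compared in the same edgeR model, with the p-values adjusted over all genes tested (Benjamini-Hochberg). The counts of each list stand beside 4.90% of all 11738 tested genes that rose and 0.537% that fell by the criteria. Among cytochrome P450 genes of families 1 to 4, 13 of 25 counted genes were tested, 2 rose and 0 fell by the criteria, with a median log2 fold change of 0.00 against -0.009 over all genes. Cyp1a1, a classical target of the aryl hydrocarbon receptor, gave 0, 4 and 4 reads in the NP samples, compared with 62, 76 and 56 in LP, a log2 difference of 4.39 (SE 0.37, adjusted p = 5.58e-08, edgeR). Cyp1b1 rose from 8.03 ± 1.21 to 17.7 ± 0.38 CPM (SD, n = 2), a fold change of 2.10 (adjusted p = 0.00026, edgeR), which was 1.97 without NP replicate 1 and 2.00 without NP replicate 3, below the cutoff in both. The 2 genes called were thus higher in LP, as were most genes called over all genes (575 up-regulated and 63 down-regulated). Their NP and LP samples did not overlap, as in 40.1% of all tested genes.

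Of 17 tested flavoenzymes outside the family, 3 rose and 0 fell, with a median of 0.08. Nqo1, a quinone reductase that like Fmo enzymes carries FAD, gave 144, 142 and 128 reads in the NP samples, compared with 807, 765 and 757 in LP. Its fold change was 5.07 (log2 2.34, SE 0.078, adjusted p = 1.9e-13, edgeR). Mical2, a flavin monooxygenase that oxidizes actin, rose 2.09-fold (adjusted p = 7.08e-06, edgeR), with a value of 1.91 without NP replicate 3. Nqo2 had at most 17 reads in a sample, and its fold change of 2.05 (adjusted p = 0.0323, edgeR) was called in 6 of 16 fits. Leaving out NP replicate 1, 2 or 3 gave adjusted p-values of 0.0572, 0.149 and 0.0571 (edgeR), and leaving out LP replicate 1 or 3 gave 0.111 and 0.0883 (edgeR). The flavoenzymes called were thus higher in LP, as were most genes called over all genes.

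The electron donors of microsomal oxygenases moved little, with 0 of 9 tested genes past the criteria and a median of -0.20. Por, the P450 reductase, went from 495 ± 8.9 to 382 ± 17 CPM (SD, n = 2), a log2 fold change of -0.38 (adjusted p = 1.32e-05, edgeR). Cyb5r3, a cytochrome b5 reductase, was at -0.13 (adjusted p = 0.109, edgeR). At an adjusted p-value below 0.05 without the fold cutoff, 4 of the 9 were lower and 1 was higher, beside 27.0% of all genes in either direction.

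Among conjugating enzymes, which act after oxidation of a compound, 26 of 34 counted genes were tested, and 2 rose and 2 fell, with a median of -0.07. The sulfotransferase genes Sult1a1 and Sult1d1 fell. Sult1a1, a phenol sulfotransferase, gave 185, 209 and 196 reads in the NP samples, compared with 61, 59 and 71 in LP, a log2 difference of -1.78 (SE 0.10, adjusted p = 2.74e-10, edgeR). Sult1d1 fell 2.38-fold (adjusted p = 4.72e-05, edgeR). The glutathione transferase genes Gstm7 and Mgst3 rose by log2 fold changes of 1.43 and 1.16 (adjusted p = 1.13e-06 and 0.000123, edgeR). Gstm7 belongs to a family of similar genes, among which counting may split reads. Sulfation and glutathione transfer genes that were called thus went in opposite directions.

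In the list of sulfur amino acid and taurine metabolism, to which Fmo1 is linked through hypotaurine, 16 genes were tested, 1 rose and 0 fell, with a median of 0.03. The gene was Msrb3, a methionine sulfoxide reductase, with a fold change of 2.29 (adjusted p = 3.96e-05, edgeR). Without NP replicate 1 its fold change was 1.93, below the cutoff. Csad, the decarboxylase that makes hypotaurine, was at -0.05 and Cdo1, the dioxygenase before it, at 0.28, and neither passed the test (adjusted p = 0.607 and 0.273, edgeR).

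Of the receptors and factors known to control drug metabolism genes, 15 were tested, 1 rose and 0 fell, with a median of 0.11. The gene that rose was Ppara, the fatty acid receptor, with a mean of 9.17 reads and a log2 fold change of 1.66 (adjusted p = 0.0056, edgeR), named after its values were seen. With DESeq2 its adjusted p-value was 0.0798. The most counted genes of the list, Nfe2l2 and Rxrb, were at -0.43 (adjusted p = 3.49e-05, edgeR) and 0.05 (adjusted p = 0.667, edgeR). Ahr, the aryl hydrocarbon receptor, was at -0.03 (adjusted p = 0.905, edgeR), while its target Cyp1a1 rose. Tiparp, of the same list, was at 0.14 (adjusted p = 0.713, edgeR), and Ahrr had too few reads to be tested. The activity of Ahr was not tested.

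**Figure D5:**
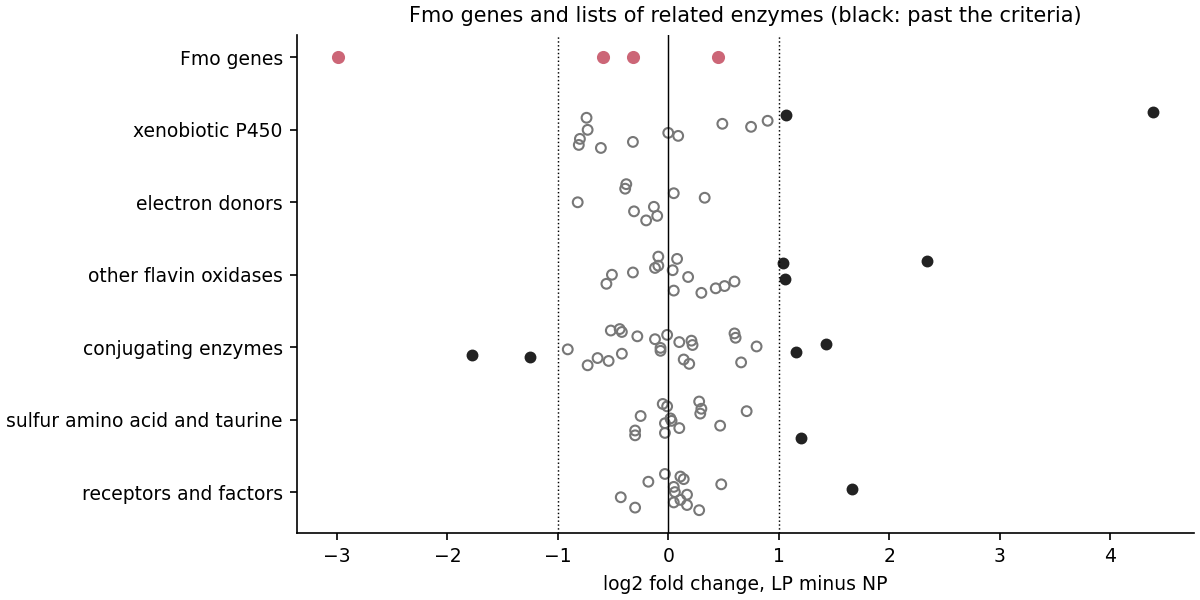
Log2 fold change (LP minus NP) of the Fmo genes (red) and of each tested gene in 6 lists of related enzymes and regulators; black points met the criteria, open points did not, and dotted lines mark a 2-fold change. Fmo2, at -2.99, lies lower than any gene of the 6 lists, whose lowest value is -1.78 for Sult1a1.

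Markers of other cell types were measured beside these values. Fmo2 is known from lung, fat and connective tissue. Of the 7 airway markers counted, 4 were tested, 3 rose (Scgb1a1, Scgb3a1 and Bpifa1) and 0 fell, and their summed level was 71.5 to 75.3 CPM in NP and 82.1 to 89.4 CPM in LP, most of it from Sftpd. Sftpd itself was at 69.7 ± 3.4 CPM (SD, n = 2) in NP and 63.5 ± 2.7 CPM in LP, with a log2 difference of -0.13 (adjusted p = 0.246, edgeR), and the part of lung or airway tissue in the difference of Fmo2 was not tested. Of the adipocyte markers, 5 were tested and none met the criteria, with sums of 62.3 to 71.7 CPM in NP and 65.2 to 79.2 CPM in LP, led by Adipoq. Of the fibroblast markers, 8 were tested and none met the criteria, with sums of 1420 to 2350 CPM in NP and 1670 to 2630 CPM in LP, led by Col3a1. The sums of these 3 lists overlapped or were higher in LP. Endothelial markers (6 tested, none past the criteria, led by Kdr) summed to 533 to 555 CPM in NP and 444 to 470 CPM in LP, and parathyroid markers (3 tested, none past the criteria) to 4470 to 4850 CPM and 3730 to 4050 CPM. Both were lower in LP, and their part in the difference of Fmo2 was not tested.

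The largest marker shift was that of skeletal muscle. Of 8 counted markers 7 were tested and 6 rose, with sums of 20.1 to 69.7 CPM in NP and 2260 to 2390 CPM in LP, led by Neb, and Myh1 and Mylpf had no read in NP. Macrophage and leukocyte markers (5 tested, none past the criteria, led by C1qa) summed to 82.0 to 94.3 CPM and 92.3 to 112 CPM, and C cell markers (5 tested, none past the criteria) to 13800 to 14800 CPM and 12300 to 13000 CPM. The part of muscle RNA in the values of the Fmo genes and of the related enzymes was not tested. With the scaling computed without muscle markers and genes past the criteria, the log2 fold change of Fmo2 was -2.97.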

How the data were processed

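Thyroid polyA+ RNA of 3 NP and 3 LP samples was sequenced (TruSeq libraries, Illumina HiSeq). The authors mapped reads to rn5 with TopHat 1.4.0, counted them with HTSeq-count on Ensembl gene models and deposited raw read counts per gene, which were used unnormalized. How the 15388 genes were chosen was not given in the sources used here. Of the Fmo symbols in the tables, 2 are not reported here, nor are a few results of other genes and marker lists.

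Groups and replicate numbers were taken from the sample titles. LP was compared with NP in edgeR 4.0.16 under R 4.3.3 (quasi-likelihood test, TMM, default filter on low counts, which kept 11738 genes, and Benjamini-Hochberg adjustment), without a block. A gene was called when it changed more than 2-fold at an adjusted p-value below 0.05. The SE of a log2 fold change was derived from it and the F statistic (its absolute value over the root of F). DESeq2 1.42.0 was an alternative. Genes below the filter were taken from the fit without it. Same-numbered NP and LP samples deviated together from their group means (correlations across genes 0.494, 0.223 and 0.192). Deviations cancel within a group, so a shared departure of the replicate 1 samples raises all of these correlations. Those of differently numbered samples were not computed. The chi-square per degree of freedom was 12.5 for NP 2 with LP 2 and 12.6 for NP 2 with LP 3. It was 12.6 for NP 3 with LP 2 and 12.7 for NP 3 with LP 3. Pairing of replicates 2 and 3 is thus not shown, and the replicate block took the numbers as pairs by assumption, not from the labels. Replicates 2 and 3 within sampling noise (chi-square per pair, on genes with 10 or more reads in both together) were averaged before each mean ± SD; the tests used the 6 samples. On counts simulated for this comparison with 200 genes changed by a log2 of 2, 100% were called. The changed genes had a mean of at least 20 reads, and the simulated samples were independent with the same spread for all genes. Changes near 2-fold, changed genes with fewer reads and the likeness of replicates 2 and 3 were thus not covered.

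Named genes were the members, up to 3 neighbours on either side (RefSeq gene order, GRCr8), up to 5 genes per list past the criteria with a mean of at least 10 reads (otherwise the 2 with most reads), the 5 genes most like Fmo2 (prior count 2), and the marker with most reads. Members and lists were chosen with earlier results of these data known. Alternatives were the block, each sample left out, replicates 2 and 3 summed, no filter or 50 reads on average, other scalings, DESeq2, ratios of group means and the fold change tested against 2.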

Additional observations from a re-analysis of the deposited data

How the results depend on the processing

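Fmo2 remained the 1 member called in all 15 alternatives, and its log2 fold change lay between -3.38 and -2.83, both reached when 1 LP sample was left out (replicate 2 and replicate 3). Added after the data were seen, it was -3.58 in the replicate 1 samples alone and -2.75 in replicates 2 and 3 alone. Fmo1 lay between -0.71 and -0.52, Fmo5 between -0.40 and -0.28 and Fmo4 between 0.28 and 0.77, with the same sign throughout. With the replicate block, no call of a named gene changed and Fmo2 stayed at -2.99. That fit called 11 list genes and 576 up-regulated and 65 down-regulated genes, against 575 and 63 without the block. With a mean of at least 50 reads, fewer genes were tested and 286 up-regulated and 29 down-regulated (315 in all) were called, with 5 list genes in place of 11. With the fold change itself tested against 2, 366 and 23 (389 in all) were called, with 4 list genes. Depth limits Fmo4, with at most 13 reads in a sample.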

Other observations

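Without the fold cutoff, 10 of the 26 tested conjugating enzymes were lower in LP and 4 were higher. The criterion was an adjusted p-value below 0.05 (edgeR's quasi-likelihood test). These counts include the 2 lower and 2 higher genes that were past the cutoff. Of all 11738 tested genes, 1374 (11.7%) were lower and 1794 were higher by the same criterion. Conjugating enzymes that changed by less than 2-fold were named after their values were seen. Those that fell included Inmt, an amine methyltransferase, at a log2 difference of -0.91 (SE 0.15, adjusted p = 0.000192, edgeR). Ugt8, the transferase of galactolipid synthesis, was at -0.73 (adjusted p = 0.000845, edgeR), Sult2b1, a sterol sulfotransferase, at -0.64 (adjusted p = 0.00334, edgeR) and Sult5a1 at -0.54 (adjusted p = 0.00293, edgeR). The microsomal epoxide hydrolase gene Ephx1 was at -0.52 (adjusted p = 7.69e-05, edgeR). In the other direction, the glutathione transferase genes Gstp1 and Gsta1 were at 0.80 and 0.60 (adjusted p = 8.94e-09 and 3.1e-07, edgeR). Among the electron donors, Cyb5r2 was at -0.82 (adjusted p = 0.0142, edgeR), Cyb5a at -0.39 (adjusted p = 0.00231, edgeR) and Cyb5r1 at 0.33 (adjusted p = 0.000886, edgeR), so these too stayed below the cutoff and well short of the difference of Fmo2.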
